A study of Mus musculus with 32 samples.

Results

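The genes described here are 9 well-known targets of the glucocorticoid receptor: Fkbp5, Tsc22d3, Sgk1, Zbtb16, Klf9, Klf15, Ddit4, Errfi1 and Pik3r1. They were taken by symbol from the 23279 genes measured in mouse hindlimb muscle, each through the probe set that carries its gene identifier (14229, 14605, 20393, 235320, 16601, 66277, 74747, 74155 and 18708, in the same order). All 9 were measured on all arrays, and no filter on level was applied. They were chosen as targets of the hormone and not by their values in these samples, although earlier results of these data were known when the list was made.

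Glucocorticoids such as corticosterone, the main one in mice, enter cells and bind the glucocorticoid receptor, which is held ready by heat shock chaperones and then moves to the nucleus to switch genes on or off. In nocturnal animals the hormone in blood is highest around the start of the active dark phase and low in the first part of the light phase. In muscle the receptor's targets restrain inflammation and insulin signalling, slow protein synthesis and raise the breakdown of amino acids. No hormone level was used here.

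The samples were hindlimb muscle of C57BL/6 mice, of which the young were 8 weeks and the aged 80 weeks old, fed ad libitum and kept for 2 weeks in 12 h light and 12 h dark. Muscle was taken every 3 h over 2 successive days, at 16 sampling times. Zeitgeber time (ZT) counts hours from lights on, and the times were ZT 0, 3, 6, 9, 12, 15, 18 and 21. An age and a ZT make a group, which gave 16 groups of 2 arrays and 16 arrays per age. Every array held RNA pooled from 3 mice (96 mice on 32 arrays), and repeats are pools of different animals. With 16 sampling times and 16 arrays per age, the repeats of a group fell on different days, although the labels do not say which on which. P-values therefore measure the spread between pools, with any difference between the days in it, and that between single mice is hidden. The labels name no transgene or drug for either age, and do not say which hindlimb muscles were taken.

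The arrays looked like muscle, with a mean log2 level of 10 muscle fibre markers (Acta1, Ckm, Myh4 and others) between 12.6 and 12.9 on all 32. Markers of other tissues varied between arrays. The mean of 16 hepatocyte markers ran from 5.78 to 9.83 in young (median 6.44) and from 5.55 to 8.11 in aged (median 6.24), and 6 arrays lay more than 1 above the median of all: young ZT 0 repeat 1, ZT 3 repeat 1, both repeats of ZT 6, ZT 18 repeat 2 and aged ZT 6 repeat 1. The mean of 7 adipocyte markers ran from 6.95 to 9.56 in young (median 7.96) and from 6.93 to 10.1 in aged (median 8.82). In whole muscle, fewer cells of a type and less RNA per cell cannot be told apart.

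The stretches before the transcription starts of 4 of the genes are shown first, because they hold the DNA words for the hormone receptor or the circadian clock that were found among the 9. A table of RefSeq promoters (build GRCm38.p6) held 8 of the 9 genes, without Zbtb16. The 250 bases before each start were searched on both strands for 6 words. They were the E-box CACGTG, which clock proteins bind, the D-box TTATGTAA, the ROR element TAGGTCA, the cAMP response element TGACGTCA, the glucocorticoid half-site AGAACA and the full glucocorticoid response element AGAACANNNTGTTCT, which contains the half-site on each strand. Sequences read 5′ to 3′ on the gene's own strand, end at the base before the start, and have every match in capitals. They lie at chr10:21993640-21993889 (plus strand) for Sgk1, chrX:140600523-140600772 (minus strand) for Tsc22d3, chr17:28486150-28486399 (minus strand) for Fkbp5 and chr6:90462326-90462575 (plus strand) for Klf15.
Sgk1: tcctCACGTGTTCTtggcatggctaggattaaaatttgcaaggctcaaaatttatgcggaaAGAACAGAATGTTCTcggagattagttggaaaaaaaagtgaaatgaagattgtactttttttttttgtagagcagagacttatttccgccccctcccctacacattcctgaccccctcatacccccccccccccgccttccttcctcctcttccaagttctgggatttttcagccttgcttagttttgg
Tsc22d3: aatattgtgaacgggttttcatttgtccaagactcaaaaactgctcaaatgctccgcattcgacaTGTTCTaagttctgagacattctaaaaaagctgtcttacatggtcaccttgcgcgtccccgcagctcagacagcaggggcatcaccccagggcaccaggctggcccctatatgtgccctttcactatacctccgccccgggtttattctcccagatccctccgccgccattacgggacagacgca
Fkbp5: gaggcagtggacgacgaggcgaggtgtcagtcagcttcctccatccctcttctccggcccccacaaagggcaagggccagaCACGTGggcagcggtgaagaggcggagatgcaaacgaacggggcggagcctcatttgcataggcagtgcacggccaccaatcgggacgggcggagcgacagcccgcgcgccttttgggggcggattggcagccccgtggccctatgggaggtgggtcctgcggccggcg
Klf15: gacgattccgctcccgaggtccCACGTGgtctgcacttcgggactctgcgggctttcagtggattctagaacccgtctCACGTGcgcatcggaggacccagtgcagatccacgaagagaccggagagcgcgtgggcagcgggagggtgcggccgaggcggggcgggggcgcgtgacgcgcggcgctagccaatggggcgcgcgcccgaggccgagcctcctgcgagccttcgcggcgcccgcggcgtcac

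This start of Sgk1, 1 of 6 in the table, carried a full glucocorticoid response element, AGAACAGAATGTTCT, at positions -189 to -175 from the start. The full word was present in 3 of 32851 promoter windows (0.01%). The same stretch of Sgk1 held an E-box at -246 to -241 that overlaps a half-site at -242 to -237. Another 2 starts of Sgk1 held a half-site, at -195 to -190 and at -13 to -8. Tsc22d3 held a half-site at -185 to -180, so that 2 of the 8 genes had a half-site, against 18.18% of the 27025 genes in the table. E-boxes were found in 3 of the 8, against 6.86% of genes: Klf15 held a pair at -228 to -223 and -172 to -167, Fkbp5 held 1 at -169 to -164, and Sgk1 held the one named above. Errfi1 held a cAMP response element at -51 to -44 (1.77% of genes have one), and no D-box (0.98%) or ROR element (2.55%) was found in the 8. A match is a description of letters in a short window, and glucocorticoid receptor sites often lie far outside such windows.

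All 9 genes had a daily rhythm in the joint fit of both ages, with fitted peaks between ZT 11.7 (Klf9) and ZT 19.2 (Zbtb16). Late in the light phase some were still low. The lowest mean was at ZT 9 for Fkbp5 and Zbtb16 in both ages and for Errfi1 in young. A rhythm was called where a wave of 24 h fitted to the log2 levels passed limma's moderated F test at an adjusted p under 0.05 (Benjamini-Hochberg over all 23279 genes). By that rule 9 of the 9 were rhythmic with ages together, against 3.6% of all genes tested, 6 in young (Fkbp5, Tsc22d3, Sgk1, Zbtb16, Ddit4 and Pik3r1), against 1.92%, and 4 in aged (Fkbp5, Tsc22d3, Zbtb16 and Pik3r1), against 0.696%. With ZT as a factor of 8 levels in place of the wave, 5 of the 9 were called with ages together, 6 in young and 0 in aged, and the calls among all genes fell from 837 to 309, from 448 to 104 and from 162 to 32. The amplitude, measured from the wave's mean up to its peak, had a median over the 9 of 0.47 in young and 0.24 in aged on the log2 scale, where the median over all genes was 0.090 and 0.079. Folds from trough to peak below are those of the fitted wave, and standard errors of peak times are approximations. Standard errors of either age come from the model of both ages, with a spread shared by the ages. The n = 16 given with them counts the arrays of that age only. With each age fitted alone, the error of the amplitude was 0.11 in young and 0.071 in aged for Fkbp5. For Errfi1 it was 0.053 and 0.092.

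**Figure D1:**
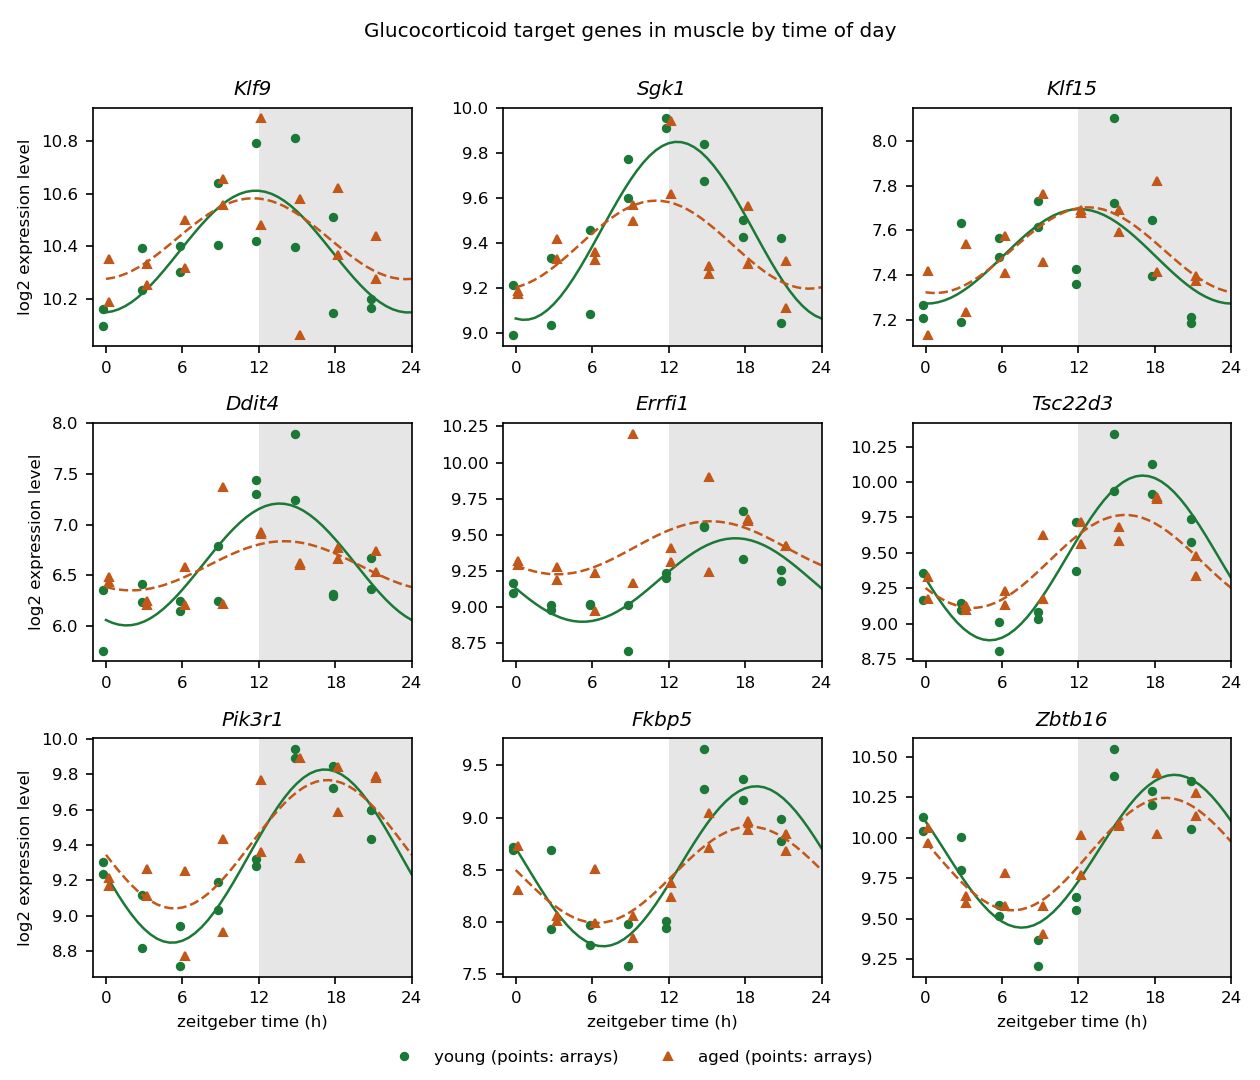
Log2 expression level of the 9 genes against zeitgeber time (h), in order of peak time, with 1 point per array (circles young, triangles aged, 2 arrays per age and time), the fitted 24 h wave of each age (solid young, dashed aged) and the dark phase shaded. The fitted waves peak late in the light phase or in the dark phase, while the means of Fkbp5 and Zbtb16 are lowest at ZT 9. The young wave of Fkbp5 spans 2.89-fold and the aged one 1.89-fold, and 1 aged array at ZT 9 stands high for Errfi1 (10.2) and Ddit4 (7.37).

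Fkbp5 and Tsc22d3 act in the hormone response itself. Fkbp5 encodes a co-chaperone that lowers the receptor's grip on the hormone. Its level ran from 7.58 to 9.66 in young, with a median of 8.69, and from 7.85 to 9.05 in aged, with a median of 8.44. The highest young mean was at ZT 15 (9.28 and 9.66) and the lowest at ZT 9 (7.58 and 7.98), and the highest aged mean was at ZT 18 (8.97 and 8.88). In both ages every array of ZT 15, 18 and 21 lay above every array of ZT 3, 6 and 9. The fitted rhythm in young was 2.89-fold from trough to peak, an amplitude of 0.77 ± 0.099 (SE, n = 16), with its peak at ZT 18.9 ± 0.491 h (limma adjusted p = 3.48e-05). In aged muscle it was 1.89-fold, an amplitude of 0.46 ± 0.099, with its peak at ZT 18.4 ± 0.817 h (limma adjusted p = 0.0432). The aged call was close to the threshold. Over the omissions of single arrays its limma adjusted p ran from 0.0128 to 0.11, and it passed only without young ZT 3, 6, 9, 12 or 15 repeat 1, young ZT 3, 12, 15 or 21 repeat 2, or aged ZT 0 or 6 repeat 2. Without the 6 arrays high in hepatocyte markers its adjusted p was 0.0808, and with ZT as a factor 0.214. The aged call was also lost without replicate 1 (amplitude 0.41) or replicate 2 (0.52), with 1 array per group left. The young call held in each omission of 1 array but was lost without replicate 1 (amplitude 0.79).

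Tsc22d3 encodes GILZ, a leucine zipper protein that mediates much of the hormone's anti-inflammatory action. In young its level ran from 8.81 to 10.3 (median 9.36) and in aged from 9.10 to 9.89 (median 9.41). The young arrays of ZT 15, 18 and 21 (9.58 to 10.3) did not overlap those of ZT 3, 6 and 9 (8.81 to 9.15), whereas the aged ones did, because 1 array at ZT 9 stood at 9.63. The rhythm was 2.24-fold in young (amplitude 0.58 ± 0.056, SE, n = 16; peak ZT 17.0 ± 0.369 h; limma adjusted p = 1.84e-07), the smallest adjusted p of the 9 in young. In aged it was 1.58-fold (amplitude 0.33 ± 0.056; peak ZT 15.7 ± 0.653 h; limma adjusted p = 0.00445). Both calls held in each omission of 1 array, but the aged one was lost with ZT as a factor (limma adjusted p = 0.24), without replicate 1 (0.316) and without replicate 2 (0.33).

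The next 4 genes act in growth factor and nutrient signalling. Sgk1 encodes a kinase related to AKT that also acts on ion transport, and its level was highest at the change from light to dark. In young its level ran from 8.99 to 9.95 (median 9.44), and in aged from 9.11 to 9.94 (median 9.32). The ZT 12 pair was the highest in both ages, 9.91 and 9.95 in young and 9.61 and 9.94 in aged. In young the ZT 12 arrays lay above all others, while in aged the ZT 9 arrays reached up to 9.57, just below the lower ZT 12 array. The fitted rhythm was 1.73-fold in young (amplitude 0.40 ± 0.056, SE, n = 16; peak ZT 12.7 ± 0.539 h; limma adjusted p = 0.000141). In aged the fitted wave spanned 1.31-fold and did not pass (amplitude 0.20 ± 0.056; limma adjusted p = 0.262). The young call held in each omission of 1 array but was lost without replicate 1 (amplitude 0.38), with 1 array per group left.

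Ddit4 encodes REDD1, an inhibitor of mTORC1, the kinase complex that drives protein synthesis. In young its level ran from 5.75 to 7.90 (median 6.36), and in aged from 6.20 to 7.37 (median 6.59). The 4 young arrays of ZT 12 and ZT 15 (7.44, 7.30, 7.24 and 7.90) lay above the other 12 young arrays. The aged ZT 12 pair stood at 6.92 and 6.90, and the highest aged array was ZT 9 repeat 1 at 7.37, whose repeat was at 6.22. The rhythm was 2.31-fold in young (amplitude 0.60 ± 0.11, SE, n = 16; peak ZT 13.6 ± 0.724 h; limma adjusted p = 0.00633), and the wave of 1.40-fold in aged did not pass (amplitude 0.24 ± 0.11; limma adjusted p = 0.738). The young call was lost without the 6 arrays high in hepatocyte markers (adjusted p = 0.0548), with young fitted alone (0.0568) and without the ZT 15 arrays (0.118). It was also lost without replicate 1 (amplitude 0.65) or replicate 2 (amplitude 0.56), with 1 array per group left.

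Errfi1 encodes MIG6, a brake on EGF receptor signalling. Its young arrays ran from 8.70 to 9.66 (median 9.17), and those of ZT 15, 18 and 21 (9.18 to 9.66) did not overlap those of ZT 3, 6 and 9 (8.70 to 9.02). The aged arrays ran from 8.97 to 10.2 (median 9.31), with the highest value in 1 of the 2 ZT 9 pools (10.2, repeat at 9.17). The same pool was the highest aged one for Ddit4, and its mean of adipocyte markers (6.93) was the lowest of the aged arrays, against 10.1 in its repeat. With the adipocyte mean as a covariate Errfi1 passed with ages together (limma adjusted p = 0.00677). Without it Errfi1 also passed with ages together (1.37-fold, amplitude 0.23 ± 0.055, SE, n = 32; peak ZT 16.5 ± 0.917 h; limma adjusted p = 0.0328), while in the model of both ages its young wave (0.103) and its aged wave (0.671) did not pass. The young wave passed with young fitted alone (limma adjusted p = 0.0239) and with the adipocyte covariate (0.0246). The joint call without the covariate was lost in 6 of 32 omissions of 1 array: young ZT 15 repeat 1 or 2, young ZT 18 repeat 2, aged ZT 3 repeat 1, aged ZT 6 repeat 2 and aged ZT 15 repeat 2 (limma adjusted p up to 0.0699). It was also lost without the ZT 15 arrays (adjusted p = 0.131) and without the arrays high in hepatocyte markers (0.188). Without aged ZT 9 repeat 1 the young wave passed (limma adjusted p = 0.00521).

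Pik3r1 encodes the p85α regulatory subunit of the insulin-responsive PI3-kinase, and its rhythm was called at both ages. Levels ran from 8.72 to 9.94 in young (median 9.29) and from 8.77 to 9.89 in aged (median 9.34). The young arrays of ZT 15, 18 and 21 (9.43 to 9.94) did not overlap those of ZT 3, 6 and 9 (8.72 to 9.19), and in aged 1 array at ZT 9 (9.43) and 1 at ZT 15 (9.33) made the ranges overlap. Young muscle had a 1.97-fold rhythm (amplitude 0.49 ± 0.066, SE, n = 16; peak ZT 17.2 ± 0.512 h; limma adjusted p = 6.42e-05). Aged muscle had a 1.65-fold rhythm (amplitude 0.36 ± 0.066; peak ZT 17.4 ± 0.692 h; limma adjusted p = 0.00844). The aged call was lost with aged fitted alone (limma adjusted p = 0.0983) and with ZT as a factor (0.52), and both calls were lost without replicate 1 (0.0946 in young, 0.474 in aged) or replicate 2 (0.0869 and 0.323).

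The last 3 genes encode transcription factors. Zbtb16, the gene of PLZF, had the latest fitted peak of the 9. Its level ran from 9.21 to 10.6 in young (median 10.0) and from 9.40 to 10.4 in aged (median 9.99). ZT 9 was lowest in both ages, at 9.37 and 9.21 in young and 9.58 and 9.40 in aged. In both ages all arrays of ZT 15, 18 and 21 lay above those of ZT 3, 6 and 9. The rhythm was 1.93-fold in young (amplitude 0.47 ± 0.064, SE, n = 16; peak ZT 19.5 ± 0.514 h; limma adjusted p = 6.72e-05). In aged it was 1.62-fold (amplitude 0.35 ± 0.064; peak ZT 18.8 ± 0.698 h; limma adjusted p = 0.00957). Both calls held in each omission of 1 array, but the aged one was lost with ZT as a factor (limma adjusted p = 0.0631), without replicate 1 (0.543, and 0.137 for the young one) and without replicate 2 (0.183).

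Klf9 and Klf15 are Krüppel-like factors, of which Klf15 drives amino acid breakdown in muscle. Klf9 ran from 10.1 to 10.8 in young (median 10.4) and from 10.1 to 10.9 in aged (median 10.4), with the highest mean at ZT 12 and the lowest at ZT 0 in both ages. Its wave was the smallest with ages together, 1.31-fold (amplitude 0.19 ± 0.041, SE, n = 32; peak ZT 11.7 ± 0.818 h; limma adjusted p = 0.0118), and passed in neither age (0.0796 in young, 0.581 in aged). Klf15 ran from 7.18 to 8.10 in young (median 7.45) and from 7.13 to 7.82 in aged (median 7.50). For both genes the arrays of ZT 15, 18 and 21 overlapped those of ZT 3, 6 and 9 in each age. Klf15 passed with ages together at 1.32-fold (amplitude 0.20 ± 0.044, SE, n = 32; peak ZT 12.4 ± 0.834 h; limma adjusted p = 0.0142), and not in young (0.180) or aged (0.437). The joint call of Klf9 gave an adjusted p of 0.0585 without the arrays high in hepatocyte markers, and that of Klf15 gave 0.0638 without the ZT 15 arrays. The young wave of Klf9 passed without aged ZT 15 repeat 2 (limma adjusted p = 0.0232).

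The fitted waves of the 9 genes did not peak at 1 time. In order of the fitted peak with ages together they were Klf9 (ZT 11.7), Sgk1 (12.1), Klf15 (12.4), Ddit4 (13.7), Errfi1 (16.5), Tsc22d3 (16.5), Pik3r1 (17.3), Fkbp5 (18.7) and Zbtb16 (19.2). Between neighbours in this order only 2 gaps were larger than 2 times their approximate standard error: that of 2.75 ± 1.19 h from Ddit4 to Errfi1 and that of 1.42 ± 0.617 h from Pik3r1 to Fkbp5. These errors take the genes as independent, which genes measured on the same arrays are not. The highest measured means were less spread in young, at ZT 12 for Sgk1 and Klf9 and at ZT 15 for all others. Young Fkbp5 rose from a mean of 7.97 at ZT 12 to 9.47 at ZT 15 and then fell. In aged they were at ZT 12 for Sgk1, Klf9, Klf15 and Ddit4, and at ZT 18 for Fkbp5, Tsc22d3 and Zbtb16. Those of aged Errfi1 (ZT 9) and Pik3r1 (ZT 21) lay apart. By fitted peak Klf9, Sgk1, Klf15 and Ddit4 lay near the change to darkness, and Errfi1, Tsc22d3 and Pik3r1 in the early night. Fkbp5 and Zbtb16 lay around and after midnight. Of the time markers of the clock, Dbp peaked at ZT 11.0 and Per2 at ZT 13.4, beside the first 4, while Nr1d1 peaked at ZT 5.48 and Arntl at ZT 23.2, apart from all 9. Of 14 clock genes 14 were rhythmic with ages together, 14 in young and 13 in aged, against 3.6%, 1.92% and 0.696% of all genes.

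**Figure D2:**
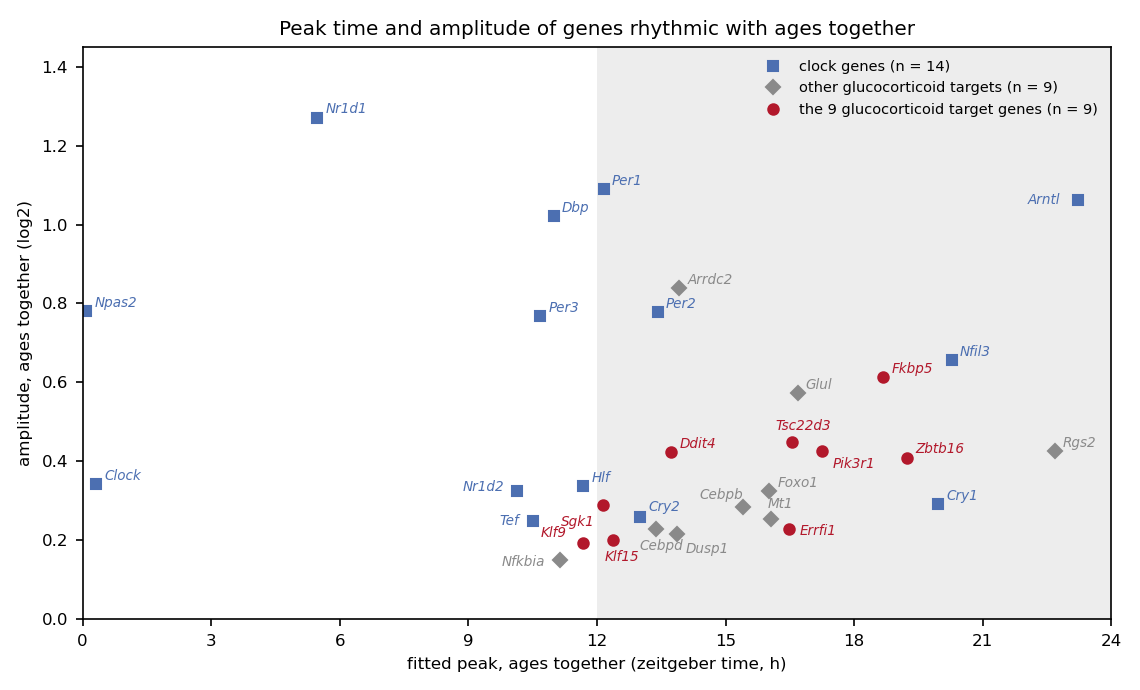
Amplitude (log2, mean to peak) against fitted peak time (zeitgeber time, h), both with ages together, for the 9 genes (circles), for other glucocorticoid targets rhythmic with ages together (diamonds, Per1 left to the clock genes) and for 14 clock genes (squares), with the dark phase shaded. The 9 genes lie between ZT 11.7 (Klf9) and ZT 19.2 (Zbtb16) with amplitudes from 0.19 (Klf9) to 0.61 (Fkbp5), while clock genes lie all around the day.

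Genes whose 16 group means, centred per age, followed those of a member most closely were found by the root mean square (RMS) difference over the 16 groups, in log2 units. For Sgk1 the nearest were Klhl33 (0.079), Fzd4 (0.085) and Mthfd1l (0.11), where Sgk1 itself lay 0.24 from a flat line. For Pik3r1 they were Fmo1 (0.10), Xdh (0.12) and Ip6k3 (0.13), and Ip6k3 was also the nearest to Tsc22d3 (0.13), followed by Npy1r and Stxbp4. Zbtb16 was followed most closely by Rc3h1 (0.11), Fibin and Slc38a2. Fkbp5, 0.49 from a flat line, had no gene closer than Myod1 (0.22), a muscle transcription factor gene, followed by Tbc1d1 and Hspa1b, a chaperone gene whose near-identical copy Hspa1a can share its probes. The nearest to Ddit4 were Tob2 (0.20), Depp1 and Fam107a, to Errfi1 Maco1, Rhbdl3 and Lztfl1 (0.12 each), to Klf9 Srpk2, Ankrd12 and Plpp6 (from 0.076 to 0.080), and to Klf15 Atp13a5, Nfe2l2 and Cep295 (from 0.092 to 0.11). Small values for Klf9 and Klf15 go with their small waves, since they lay 0.16 and 0.18 from a flat line.

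In the fitted waves the aged amplitude was below the young one in 9 of the 9 genes, where 57.1% of all 23279 genes and 70.8% of the 837 genes rhythmic with ages together had the smaller amplitude in aged. The aged amplitude was 40.3% of the young one for Ddit4, 49.4% for Sgk1, 56.4% for Tsc22d3, 60.2% for Fkbp5 and 90.7% for Klf15. Markers of other tissues differed in amplitude between the ages in both directions. The median amplitude of the 16 hepatocyte markers was 0.59 in young and 0.15 in aged, with 16 of 16 smaller in aged, and that of the 7 adipocyte markers was 0.63 and 0.38, with 7 of 7 smaller, although 0 of either list were called rhythmic. The median amplitude of the 7 endothelial markers was 0.22 in young and 0.13 in aged (5 of 7 smaller in aged), that of the 7 macrophage markers was 0.18 and 0.29 (0 of 7 smaller), and that of the 6 fibroblast markers 0.19 and 0.28 (2 of 6 smaller). The satellite cell, Schwann cell and lymphocyte lists also had the higher median in aged (0.11, 0.092 and 0.19, against 0.096, 0.068 and 0.17 in young). Most of their single markers went the other way, with 3 of 4, 2 of 3 and 3 of 4 smaller in aged. Without the 6 arrays high in hepatocyte markers the median amplitude of the 9 genes was 0.55 in young and 0.25 in aged, with 9 of the 9 smaller in aged. With the adipocyte mean as a covariate it was 0.40 and 0.24, and the aged amplitude was smaller for all but Klf15, which stood at 0.20 in both ages. The count was 8 of the 9 without young ZT 15 repeat 2 or aged ZT 3 repeat 2, where Klf15 turned, and 8 and 7 without all arrays of replicate 1 or replicate 2. None of these differences passed the test of the difference itself. With limma's F test on the difference of the waves, amplitude and peak jointly, 0 of the 9 and 0% of all genes had an adjusted p under 0.05, and 2 of the 9, Tsc22d3 (unadjusted p = 0.00309) and Sgk1 (0.0217), had an unadjusted p under 0.05, as had 5.55% of all genes.

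The amplitude difference, aged minus young, was -0.25 ± 0.079 (SE) for Tsc22d3, with an approximate 95% interval from -0.41 to -0.098. For Fkbp5 it was -0.31 ± 0.14 (-0.58 to -0.032), for Sgk1 -0.20 ± 0.079 (-0.36 to -0.045) and for Ddit4 -0.36 ± 0.16 (-0.68 to -0.043). These 4 intervals, which are not adjusted for the number of genes, leave out 0. Without the ZT 15 arrays 3 of the 4 differences came within 2 standard errors of 0, at -0.13 ± 0.17 for Ddit4, -0.14 ± 0.082 for Tsc22d3 and -0.15 ± 0.084 for Sgk1. So did Ddit4 with the hepatocyte covariate (-0.29 ± 0.16) and Sgk1 without the arrays high in hepatocyte markers (-0.15 ± 0.083). That of Fkbp5 was -0.25 ± 0.11 without the ZT 15 arrays, but limma's F test on the difference of its waves, with all arrays, gave an unadjusted p of 0.0947. The intervals of Zbtb16 (-0.30 to 0.052), Pik3r1 (-0.31 to 0.055), Errfi1 (-0.32 to 0.11), Klf9 (-0.24 to 0.087) and Klf15 (-0.20 to 0.16) include 0. Fitted peaks were earlier in aged for 6 of the 9 genes, 13 of 14 clock genes and 17 of 21 other glucocorticoid targets. Other lists went both ways, with 9 of 12 paralogues and 8 of 10 atrophy genes earlier, but 4 of 16 hepatocyte and 0 of 7 adipocyte markers. The share over all genes is not given here. Many of these waves were not called, since only 4 of the 9 and 4 of the 21 were rhythmic in aged. A shift of peak time was not tested by itself. The shift was -1.98 ± 1.91 h for Errfi1, which was called in neither age, and -1.65 ± 1.22 h for Sgk1, which was not called in aged. For Tsc22d3, called in both, it was -1.37 ± 0.750 h.

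**Figure D3:**
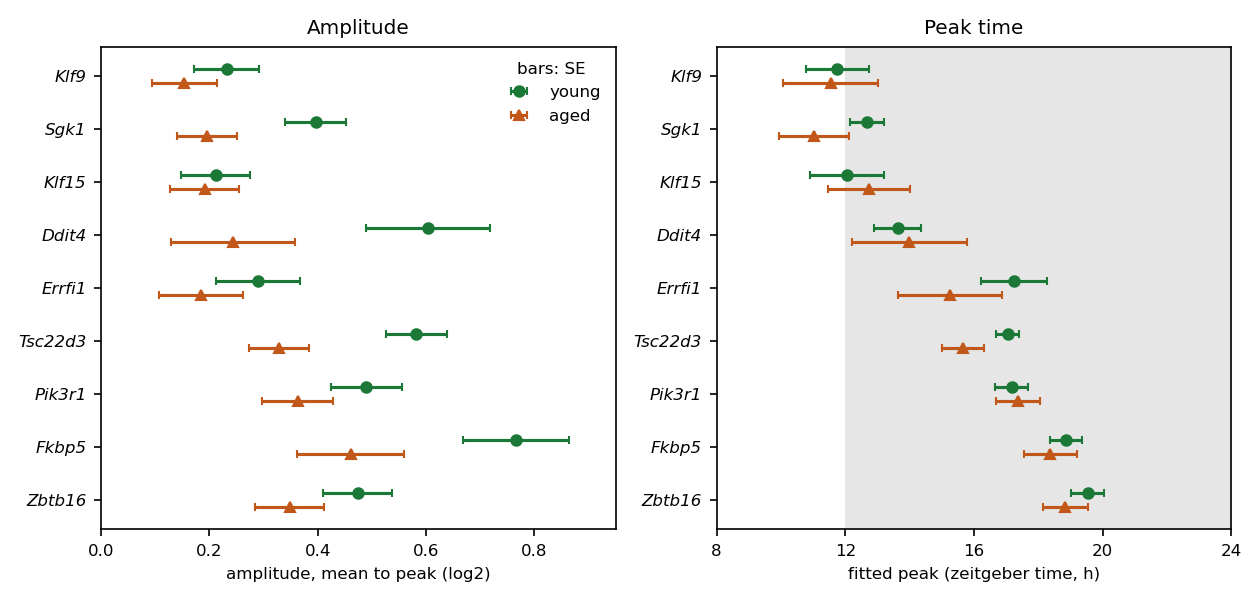
Amplitude (log2, mean to peak, left) and fitted peak (zeitgeber time, h, right) of the 9 genes in young (circles) and aged (triangles) muscle, with the dark phase shaded. Bars are 1 standard error from the model of both ages (16 arrays per age), with a spread shared by the ages. The aged amplitude is the smaller one in all 9 rows, from 0.24 against 0.60 for Ddit4 to 0.19 against 0.21 for Klf15, and the bars of the peak times of the ages overlap in 7 of the 9 rows.

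The age differences, aged minus young, were lowest at ZT 15, a pattern singled out after the values were seen. Of the 8 age differences of each gene, the lowest was that at ZT 15 in 9 of the 9 genes (for Errfi1, which had no negative one, it was the smallest positive one), where this held for 15.6% of all genes and 25.7% of the genes rhythmic with ages together. At ZT 15 the young pair of Ddit4 stood at 7.24 and 7.90 and the aged pair at 6.60 and 6.62. The young pair of Fkbp5 stood at 9.28 and 9.66 and the aged pair at 8.71 and 9.05. The young pair of Tsc22d3 stood at 9.93 and 10.3 and the aged pair at 9.58 and 9.68. The aged pair lay wholly below the young pair for these 3 genes and for Sgk1, Zbtb16, Klf15 and Pik3r1, 7 of the 9, against 16.8% of all genes. The pairs of Klf9 overlapped, and the aged pair of Errfi1 (9.24 and 9.90) lay on both sides of the young one (9.56 and 9.56).

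A limma contrast of aged minus young at ZT 15 in a model of the 16 groups gave -0.96 ± 0.27 (SE) for Ddit4, -0.59 ± 0.22 for Fkbp5, -0.51 ± 0.16 for Tsc22d3, -0.48 ± 0.15 for Sgk1 and -0.39 ± 0.14 for Zbtb16. These 5 had an unadjusted p under 0.05 (from 0.00206 to 0.0127), against 3.33% of all genes that were lower in aged at that level. After Benjamini-Hochberg adjustment 0 of the 9 passed, against 0.0129% of all genes (limma adjusted p from 0.322 to 0.994). The differences of Pik3r1 (-0.31), Klf9 (-0.28) and Klf15 (-0.27) were also negative, and that of Errfi1 was 0.013. The median over the 9 was -0.39, where that over all genes was 0.016. At the other 7 times the median over the 9 lay between -0.030 and 0.17.

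Cell type markers also differed between the 4 arrays of ZT 15. The mean of the adipocyte markers was 8.21 and 9.26 in young and 9.01 and 7.82 in aged, that of 6 fibroblast markers was 9.10 and 9.37 in young and 8.55 and 11.0 in aged, and that of 7 macrophage markers was 6.67 and 6.78 in young and 6.76 and 7.62 in aged. The mean of 4 lymphocyte markers was 5.04 and 6.21 in young and 5.10 and 5.08 in aged, and the value of 6.21, in young ZT 15 repeat 2, was the highest of the 32 arrays. The same pool was the highest young one for Fkbp5, Tsc22d3, Zbtb16, Klf9, Klf15 and Ddit4. The part of the adipocyte, fibroblast, macrophage and lymphocyte markers in the ZT 15 differences was not tested. Without the ZT 15 arrays of both ages the median amplitude of the 9 genes was 0.43 in young and 0.33 in aged, and the aged amplitude was the smaller one in 8 of the 9, the exception being Klf15. The 5 young calls that remained were those of Fkbp5, Tsc22d3, Sgk1, Zbtb16 and Pik3r1, and 7 genes were called with ages together.

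**Figure D4:**
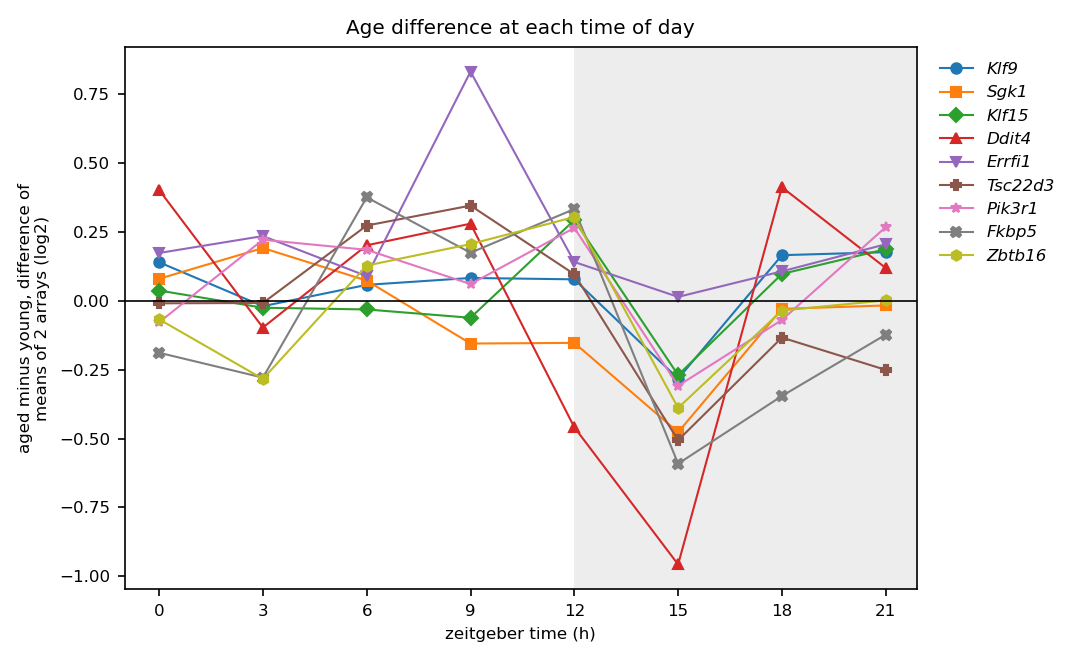
Difference in log2 level, aged minus young, of the means of 2 arrays at each zeitgeber time (h) for the 9 genes, with the dark phase shaded and the line of no difference drawn. Each gene has its lowest point at ZT 15, from -0.96 for Ddit4 to 0.013 for Errfi1, and the high point of 0.83 at ZT 9 belongs to Errfi1.

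Over the whole day the level of the 9 genes was not called different between the ages. With ZT as a factor in limma, 0 of the 9 were higher in aged, against 9.67% of all genes, and 0 were lower, against 7.51%. The differences, aged minus young, ran from -0.081 ± 0.090 (SE) for Fkbp5 to 0.22 ± 0.082 for Errfi1, and the median over the 9 was -0.013, where that over all genes was -0.0085. Errfi1 had the only unadjusted p under 0.05 (0.0112), and its limma adjusted p was 0.0600.

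Errfi1 was 1.17-fold higher in aged, with the aged mean above the young one at 8 of the 8 times and the aged pair wholly above the young pair at 5. Its call depended on settings: the adjusted p was 0.0444 after a filter on weakly expressed genes, 0.0421 with the wave in place of ZT as a factor, 0.0184 with the adipocyte marker mean as a covariate and 0.037 without the ZT 15 arrays. It also passed on omission of young ZT 18 repeat 2, aged ZT 15 repeat 1, aged ZT 6 repeat 2, aged ZT 9 repeat 1 or aged ZT 9 repeat 2, with limma adjusted p over the omissions of single arrays from 0.0198 to 0.108. Without aged ZT 9 repeat 1, the pool at 10.2, its difference was 0.15.

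A second wave of 12 h was called in 0 of the 9 genes, against 0.00859% of all genes. The unadjusted p was under 0.05 for Fkbp5 (0.0149, 12 h amplitude 0.19 ± 0.062, SE) and Zbtb16 (0.0435, 0.11 ± 0.042), as for 3.89% of all genes. The limma adjusted p of all 9 was 0.999.

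No rhythm was called in the receptor itself or in the enzymes that set hormone access. Of 6 genes of this kind 0 passed in young, 0 in aged and 0 in the joint fit, against 1.92%, 0.696% and 3.6% of all genes. A count of 0 in 6 genes is near these shares. Nr3c1, the glucocorticoid receptor gene, had a fitted wave of 1.16-fold with ages together (amplitude 0.11 ± 0.035, SE, n = 32; limma adjusted p = 0.191), and Nr3c2, the mineralocorticoid receptor gene, one of 1.18-fold (0.318). For Hsd11b1, whose enzyme regenerates active hormone inside cells, H6pd, which supplies its cofactor, and Hsd11b2, which inactivates the hormone, the adjusted p lay between that of Nr3c2 and 0.632. Between the ages the level of Nr3c1 differed by 0.016 (limma adjusted p = 0.883), while Abcb1a, an exporter of steroids, fell by 0.17 on the log2 scale in aged (limma adjusted p = 0.0314). Endothelial markers were lower in aged too, with 5 of 7 called lower, against 7.51% of all genes, and a median difference of -0.20. Their part in the value of Abcb1a, which endothelium expresses, was not tested.

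Of 11 measured chaperones and coregulators of the receptor, 3 were rhythmic with ages together, 1 in young and 1 in aged, against 3.6%, 1.92% and 0.696% of all genes. Nrip1, a corepressor gene, peaked at ZT 13.9 and varied 2.36-fold (limma adjusted p = 2.84e-11) and was 0.34 higher in aged (0.000244). Hspa8 and Stip1, chaperone genes, varied 1.18-fold and 1.26-fold with peaks at ZT 20.3 and ZT 19.9. The latest of the 9, Zbtb16, had its fitted peak at ZT 19.2 ± 0.425 h, and the order of these peaks was not tested. Fkbp4, which encodes the co-chaperone that acts opposite to the product of Fkbp5, had a fitted wave of 1.14-fold that did not pass (limma adjusted p = 0.521).

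Of 21 other targets of the hormone 10 were rhythmic with ages together, 7 in young and 4 in aged, against 3.6%, 1.92% and 0.696% of all genes. Per1, a clock gene that the receptor also switches on, peaked at ZT 12.2 and varied 4.53-fold, Arrdc2 peaked at ZT 13.9 with an amplitude of 0.84, and Glul, which makes glutamine, peaked at ZT 16.7 and varied 2.21-fold (limma adjusted p from 5.15e-11 to 3.35e-08). Foxo1, a transcription factor gene of the atrophy programme, varied 1.57-fold and peaked at ZT 16.0, and Rgs2, a regulator of G protein signalling, varied 1.80-fold and peaked at ZT 22.7. The median amplitude of these 21 genes was 0.25 in young and 0.21 in aged, and 15 of them had the smaller amplitude in aged. With the limma test 5 of the 21 rose with age, against 9.67% of all genes, and 0 fell, against 7.51%. Mt2 rose by 0.88 ± 0.17 (SE), Mt1 by 0.40, Zfp36 by 0.27, Dusp1 by 0.21 and Nfkbia by 0.18. Of the 7 macrophage markers 3 were called higher in aged and 0 lower, against the same shares of all genes, with a median difference of 0.24. Their part in these rises was not tested. That the lists differ was not tested.

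Of 10 muscle atrophy genes 0 were rhythmic in either age and 2 with ages together, Trim63 (1.37-fold, peak ZT 22.0; limma adjusted p = 0.00441), which encodes the ubiquitin ligase MuRF1, and Eif4ebp1 (1.23-fold, peak ZT 13.9; 0.0348). With age 3 of the 10 rose and 2 fell, against 9.67% and 7.51% of all genes. Fbxo32, which encodes the ubiquitin ligase atrogin-1, rose by 0.55 ± 0.11 (SE; limma adjusted p = 0.000464), and Map1lc3b and Ctsl, of autophagy and lysosomes, fell by 0.27 each (0.00208 and 0.000586).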

How the data were processed

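RNA of hindlimb muscle pools was measured on 32 arrays. The authors deposited log2 expression levels for 24479 probe sets, made with the robust multi-array average method (RMA) in R 3.2.2 with affy 1.44.1, per the submitters' processing notes. RMA normalises arrays and shrinks differences of weakly expressed genes. How probe sets were defined and on which build is not stated in what was used here, so positions come only from RefSeq promoters (GRCm38.p6). Of the probe sets 23281 had 1 gene symbol, 0 several and 1198 none. The highest probe set per symbol was kept, which left 23279 genes. Symbols were updated through RefSeq, which held 23156. Precision is limited by the number of arrays, which carry no read depth.

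The tests used limma 3.58.1 (R 4.3.3), fitted to all genes and 32 arrays, and p-values were adjusted by Benjamini-Hochberg (called under 0.05). All adjusted p-values are limma's. The model had, per age, a mean and a cosine and sine of 24 h, common terms for ages together, and ZT as a factor for the age difference. Code was tested on simulated data. No pair of arrays was a duplicate (smallest RMS difference 0.236).

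Named genes were the 9 members, up to 4 or 5 per list with the smallest p with ages together, and up to 3 with the smallest p of the age difference. Also named were all receptor and hormone genes, the 3 genes outside the 9 nearest to each member and 4 clock genes as time markers. Fkbp4 and the other rising targets were added after their values were seen. The members, the lists and the rule were chosen with earlier results of these data known. Alternatives concerned normalisation, filters, weights, models, marker covariates and omitted arrays. Some genes of the chaperone list are not reported here.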

Additional observations from a re-analysis of the deposited data

How the results depend on the processing

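Under another quantile normalisation, a filter on low values, a trended and robust fit, array weights, added 12 h terms and a hepatocyte covariate, 9 genes were called with ages together, 6 or 7 in young and 4 in aged. The seventh young call was Klf9 (limma adjusted p = 0.0468, 0.0497 and 0.0378 with quantile normalisation, the trended fit and array weights). With ZT as a factor of 8 levels, which spends more parameters than a wave, 0 were called in aged and 5 with ages together (32 and 309 of all genes). The age difference count was 1 (Errfi1) with the filter on low values, the wave in the age model, the adipocyte covariate and without the ZT 15 arrays, an alternative added after the values were seen. Without the 6 arrays high in hepatocyte markers 7 were called with ages together, 5 in young and 3 in aged (585, 255 and 108 of all genes). With each age fitted alone 6 were called in young and 3 in aged, and with the adipocyte covariate 7 and 3, where Fkbp5 in aged had a limma adjusted p of 0.0526.

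Over 34 settings that omit arrays (single arrays, replicate 1 or replicate 2) the counts ran from 4 to 9 with ages together, 1 to 7 in young, 0 to 4 in aged and 0 to 1 for the age difference, and stayed at 0 for a rhythm that differs with age and for a 12 h component. The lowest counts came from omitting replicate 1 (5, 1 and 0) or replicate 2 (4, 4 and 0), with 1 array per group left, where calls among all genes fell to 150, 35 and 8 or to 224, 77 and 20. Fitted with the replicate block, 9, 6 and 4 genes were called (872, 468 and 164 of all genes). The labels do not say that numbers pair samples, and over 120 pairs of groups the deviations of same-numbered arrays correlated between -0.234 and 0.310, with 32 over 0.1.

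Of 846 values of single genes under alternatives other than single arrays, 755 kept direction and side of the threshold, or moved by less than the spread, and 14 reversed. Reversals concerned small values: the age difference with the adipocyte covariate for Klf15 (-0.014) and Pik3r1 (-0.056), the age difference without the ZT 15 arrays for Tsc22d3 (0.044), Zbtb16 (0.035) and Ddit4 (0.12), and the amplitude difference of Klf15 without them (0.049). Over the omissions the age difference ran from -0.12 to 0.075 for Tsc22d3, -0.050 to 0.015 for Zbtb16, -0.14 to 0.24 for Klf9, -0.19 to 0.16 for Ddit4 and -0.012 to 0.15 for Pik3r1. The amplitude difference, aged minus young, ran from -0.23 to 0.13 for Klf9, -0.15 to 0.080 for Klf15 and -0.15 to 0.018 for Errfi1. The causes were not tested. With 2 pools per group, single mice cannot be seen. The repeats of a group fell on different days, but the labels tie no repeat number to a day, so pools and days cannot be told apart.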

Other observations

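Of 12 paralogues (Fkbp, Tsc22d, Sgk, Klf, Ddit4 and Pik3r families) 2 were rhythmic with ages together, 1 in young and 0 in aged, where 3.6%, 1.92% and 0.696% of all genes were. Ddit4l peaked at ZT 22.0 and varied 1.41-fold (limma adjusted p = 0.000738), and Pik3r3 peaked at ZT 1.71 and varied 1.21-fold (0.0128), each away from the peak of Ddit4 (ZT 13.7) and Pik3r1 (ZT 17.3). With age Pik3r3 and Sgk3 rose by 0.34 ± 0.042 and 0.28 ± 0.048 (SE; limma adjusted p = 1.28e-06 and 0.000133), and Klf13 fell by 0.17.

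Of 12 measured genes of insulin and mTOR signalling 2 were rhythmic in each age and together, against 1.92% of all genes in young, 0.696% in aged and 3.6% together. Irs1, which encodes an adaptor between the insulin receptor and PI3-kinase, peaked at ZT 23.0, varied 1.58-fold and fell by 0.50 ± 0.060 (SE) with age (limma adjusted p = 8.57e-07), and Pik3ca, the catalytic partner of the Pik3r1 product, peaked at ZT 1.63 and varied 1.28-fold. Of 9 genes of amino acid breakdown, the programme of Klf15, 1 was rhythmic with ages together, 2 in young and 1 in aged. The shares of all genes were 3.6%, 1.92% and 0.696%. Prodh peaked at ZT 15.1 and varied 1.73-fold (limma adjusted p = 6.51e-07), and Gpt2 and Bckdha fell by 0.32 and 0.19 with age while Bckdhb rose by 0.26. These lists too were chosen with earlier results of these data known.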
